A study of Rattus norvegicus with 4 samples.

Results

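The genes of the mitochondrial ribosome, of the machinery that imports proteins into mitochondria and of the mitochondrial carriers were examined in visceral fat of obese and control rats. They were chosen by symbol, as all genes whose single symbol in the platform annotation begins with Mrpl, Mrps, Tomm, Timm or Slc25a, with Slc25a1 and Slc25a20 left out. Of the 122 genes on the array that met this rule, 118 were kept, out of 9011 genes tested in all, because the probe set with the highest mean signal lay above the detection floor of 20.8 on at least 2 of the 4 arrays. The RNA came from visceral adipose tissue, 2 obese and 2 control samples, and all rats were Wistar males of 130 days. The labels give no cause of the obesity, no diet and no genotype, nor do they tell single animals from pools. The p-values therefore rest on the spread of these samples alone, and that spread could be technical. In such bulk tissue, fewer cells of a type and less RNA per cell cannot be told apart.

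Mitochondria make a small set of respiratory chain proteins themselves, on a ribosome whose RNA is mitochondrial but whose proteins are all encoded in the nucleus, named Mrpl for the large subunit and, for the most part, Mrps for the small one. These proteins, like nearly all others in the organelle, are made in the cytosol and enter through the TOM complex of the outer membrane (Tomm genes) and the TIM complexes of the inner membrane (Timm genes). The Slc25a carriers of the inner membrane exchange nucleotides, phosphate, carboxylates, amino acids and coenzymes with the cytosol. In white fat the dicarboxylate and related carriers serve the export of carbon for fatty acid and glycerol synthesis.

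The 4 arrays had nearly the same mean signal after trimming 2% at each end. Median signals were 81.9 and 74.9 on the obese and 82.9 and 82.6 on the control arrays. Obese replicate 2 thus had the lowest median, and results with each array centred on its median are given below. White adipocyte markers were bright. Fabp4, the fatty acid binding protein of adipocytes, had signals of 3092.3 and 3679.8 in obese and 2853.1 and 3134.1 in control tissue, and all 7 measured of 10 listed markers lay above the floor. Their summed signal was 14437.8 and 17581.8 on the obese arrays and 14611.7 and 14607.6 on the control arrays. Of the brown adipocyte markers, Cox8b and Dio2 lay at or under the floor, and Ucp1 had 25.8 and 33.9 in obese and 44 and 31.5 in control tissue. Cidea, a lipid droplet protein on the same list, was bright and separated upwards, with 663.8 and 1031.2 in obese and 513.9 and 560.2 in control tissue. Cox7a1 lay near the floor, with 19.7 and 27.4 in obese and 27.4 and 10.9 in control tissue. Markers of other cells had different signals in the groups as well. All 5 measured macrophage markers were lower in obese tissue, with sums of 4112 and 3795.6 against 4984.1 and 6102.8 in control tissue, and none of them was at or under the floor. The 4 lymphocyte markers above the floor on at least 2 arrays were lower too. Sums over 6 markers were 499.5 and 409.2 in obese and 1061 and 847.5 in control tissue. These sums include Cd3e and Cd79b, which were above the floor on fewer than 2 arrays. Mesothelial sums were 1248.8 and 299.2 in obese and 680.9 and 796.9 in control tissue, and pancreatic sums were 1294 and 235.6 in obese and 356.4 and 969.3 in control tissue. The part of these cells in the results below was not tested.

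The comparison of obese with control tissue asked how the transcripts of these genes differ in obesity. Most of them had slightly higher signals in obese tissue. Of the 118 genes, 77 were higher and 41 lower in obese tissue (65.3% higher), where 43.4% of all genes tested were higher. The median log2 difference was 0.079, against -0.040 over all genes. The groups were separated upwards (each obese array above each control array) for 39 of the 118, or 33.1%, beside 16.4% of all genes, and separated downwards for 11, or 9.32%, beside 24% of all genes. The remaining 68 had overlapping groups. No gene passed the test: limma's moderated test called 0 of the 118 at an adjusted p of 0.05, as it called 0% of the 12929 probe sets tested, and the lowest adjusted p among the 118 was 0.467. At an unadjusted p under 0.05 it held 7 of the 118, all 7 higher in obese tissue, beside 3.33% of all genes higher and 5.26% lower. A plain test without moderation also called 0 of the 118 at an adjusted p of 0.05. At an unadjusted p under 0.05 it held 9 of the 118 higher, beside 2.71% of all genes, and 4 lower, beside 4.43% of all genes.

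These differences were close in size to the gaps between arrays of the same group. The median absolute log2 difference between the groups was 0.13 over the 118 genes, while the median gap was 0.15 between the obese arrays and 0.14 between the control arrays. The difference exceeded both gaps for 36 genes, or 30.5%, compared with 26.8% of all genes. Without obese replicate 2 the median difference was 0.041, beside -0.0075 over all genes. In that setting 62.7% of the 118 were higher, beside 48.9% of all genes. With each array centred on its median, 79.7% of the 118 were higher in obese tissue, beside 56.6% of all genes, and the median was 0.16, beside 0.037 over all genes. The filter on dim signals did not decide these counts through 1 group, since 115 of the 118 lay above the floor on all 4 arrays and 0 passed through obese or control arrays alone.

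**Figure D1:**
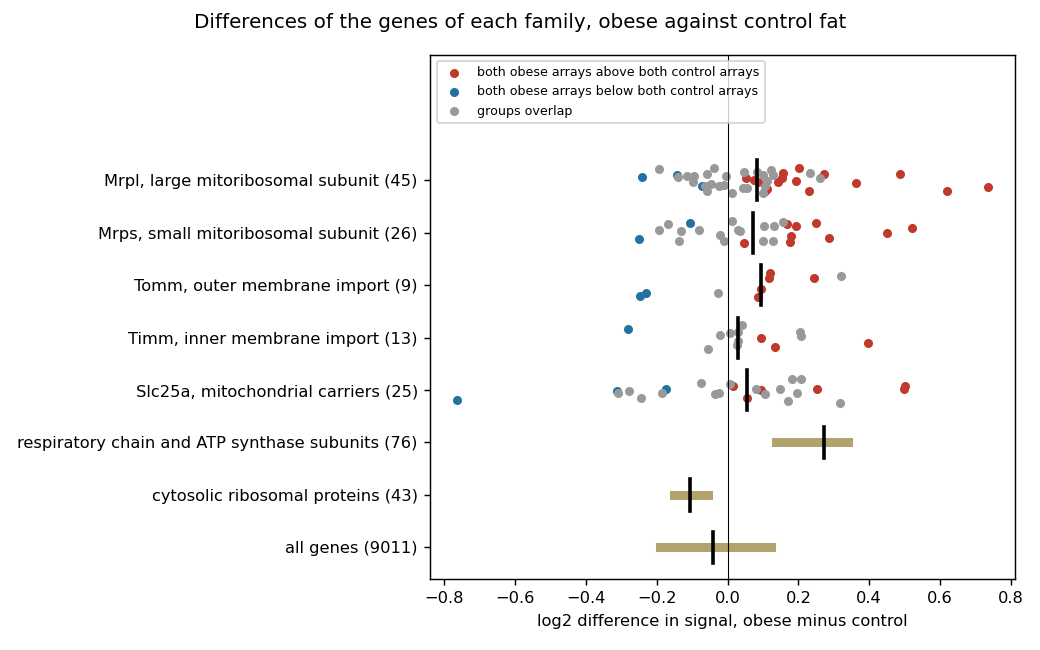
Log2 difference in signal, obese minus control, of each kept gene (dots, coloured by whether the groups overlap), with the number of genes in brackets and the median as a black line. For respiratory chain genes, cytosolic ribosomal proteins and all genes the bar runs over the middle 50% of genes. The medians of the 5 families lie between 0.030 and 0.094, between that of all genes (-0.040) and that of the respiratory chain (0.27).

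Set beside related groups of genes, the 118 lay between the subunits of the respiratory chain and the proteins of the cytosolic ribosome. The 76 measured subunits of the respiratory chain and ATP synthase had a median of 0.27, with 70 higher, 50 separated upwards and 3 downwards. The 43 measured cytosolic ribosomal proteins had a median of -0.11, with 7 higher, 1 separated upwards and 22 downwards. The differences between these groups of genes were not tested, and over all genes 16.4% were separated upwards and 24% downwards. The respiratory chain genes stood furthest out on obese replicate 2, with a median deviation of 0.24 from each gene's mean over the 4 arrays, against 0.026 on obese replicate 1. On the same arrays the 118 genes gave 0.047 and 0.025, and -0.038 and -0.029 on control replicates 1 and 2.

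**Figure D2:**
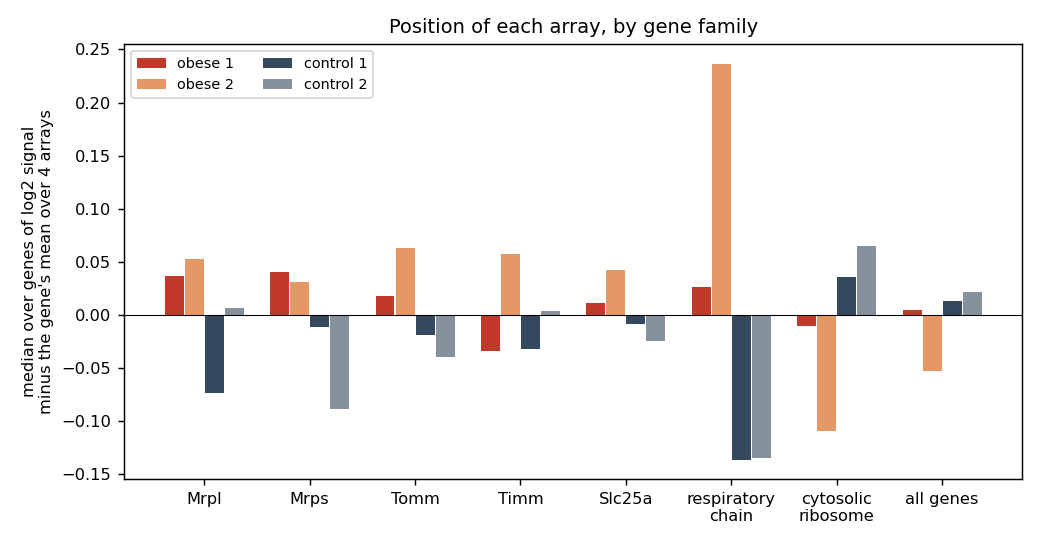
Median over the genes of a group of the log2 signal minus the gene's mean over the 4 arrays, for each array (bars), by gene group. The respiratory chain reaches 0.24 on obese replicate 2, and the bars of the 5 families stay between -0.088 and 0.063.

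The 7 genes with an unadjusted p under 0.05 came from 4 of the 5 families and had no overlap between the groups. Mrps7, a protein of the head of the small ribosomal subunit, had signals of 524.4 and 615 in obese tissue and 394.1 and 396.9 in control tissue. The obese arrays lay well apart from each other and above the nearly equal control arrays, a log2 difference of 0.52 ± 0.13 (SE of limma's fit; adjusted p = 0.467 in limma). Mrpl54, a large subunit protein with no bacterial counterpart, had 283.2 and 325 in obese and 205.7 and 227.8 in control tissue, and the log2 difference was 0.49 ± 0.14 (limma adjusted p = 0.512). Mrps28, the small subunit's relative of bacterial S1, had 113.3 and 119.2 in obese and 89.2 and 81.1 in control tissue, and the log2 difference was 0.45 ± 0.17. In these 3 genes each obese array exceeded the higher control array by more than the gap between the control arrays.

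Timm8b, an intermembrane space chaperone of hydrophobic precursors, had signals of 377.3 and 469.6 in obese and 321.2 and 318.6 in control tissue, and the log2 difference was 0.40 ± 0.15, or 0.24 without obese replicate 2. Slc25a10, the dicarboxylate carrier, had 179.4 and 244.3 in obese and 155.8 and 140.3 in control tissue, and the log2 difference was 0.50 ± 0.19. It was 0.28 without obese replicate 2, the higher of the obese arrays. Slc25a25, a carrier that exchanges ATP-magnesium for phosphate, was dim, with 44.5 and 38.8 in obese and 28.8 and 30 in control tissue, and the log2 difference was 0.50 ± 0.19. Mrpl14 was dim as well, with 39.2 and 45.6 in obese and 16.2 and 31 in control tissue. One control array lay under the floor, so the size of the log2 difference of 0.74 ± 0.26 depends on it, and it was 0.92 with the floor at the 10th percentile, 0.58 with a pseudocount and 0.45 without control replicate 1. The adjusted p of these 4 genes in limma was between 0.557 and 0.581.

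**Figure D3:**
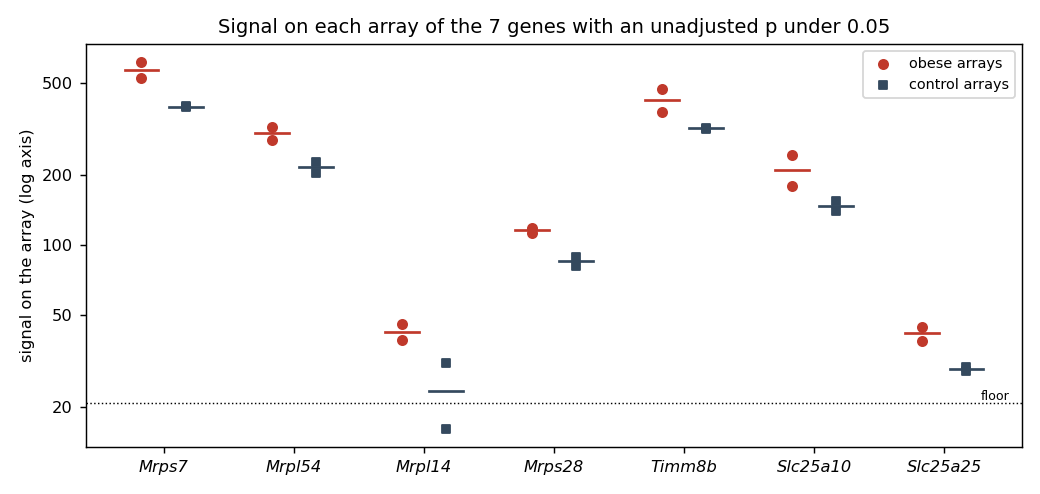
Signal on each array (log axis) of the 7 genes with an unadjusted p under 0.05, obese arrays as circles and control arrays as squares, with the group mean as a line and the detection floor of 20.8 dotted. Every obese array lies above every control array of the same gene, and control replicate 1 of Mrpl14, at 16.2, lies under the floor.

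Promoter sequences were at hand for 100 of the 118 genes (RefSeq, build GRCr8, 250 bases before to 50 after the start). The window is printed for the gene with the smallest p in each of the 4 families named above, to show the letters behind the motif counts that follow. Mrps7 lies at chr10:101342392-101342691, Mrpl54 at chr7:9103275-9103574, Timm8b at chr8:59850487-59850786 and Slc25a10 at chr10:106264146-106264445, all 4 on the plus strand, 5′ to 3′. Capitals mark matches to the motifs searched on both strands, NRF1-type (GCGC and TGCGC with any base between them), ETS-type CCGGAAG, YY1-type ATGGCGG and ERR-type TCAAGGTCA.
Mrps7: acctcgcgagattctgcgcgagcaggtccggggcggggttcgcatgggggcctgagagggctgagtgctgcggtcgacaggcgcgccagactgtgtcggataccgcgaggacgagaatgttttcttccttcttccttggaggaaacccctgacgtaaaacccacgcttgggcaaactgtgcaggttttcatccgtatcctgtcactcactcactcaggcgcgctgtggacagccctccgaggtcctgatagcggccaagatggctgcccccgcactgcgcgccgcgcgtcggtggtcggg
Mrpl54: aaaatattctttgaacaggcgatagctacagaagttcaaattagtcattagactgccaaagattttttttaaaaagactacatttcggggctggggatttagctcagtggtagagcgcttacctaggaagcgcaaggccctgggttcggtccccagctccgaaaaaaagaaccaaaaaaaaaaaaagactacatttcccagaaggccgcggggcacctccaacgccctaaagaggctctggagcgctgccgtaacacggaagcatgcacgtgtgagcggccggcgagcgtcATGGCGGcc
Timm8b: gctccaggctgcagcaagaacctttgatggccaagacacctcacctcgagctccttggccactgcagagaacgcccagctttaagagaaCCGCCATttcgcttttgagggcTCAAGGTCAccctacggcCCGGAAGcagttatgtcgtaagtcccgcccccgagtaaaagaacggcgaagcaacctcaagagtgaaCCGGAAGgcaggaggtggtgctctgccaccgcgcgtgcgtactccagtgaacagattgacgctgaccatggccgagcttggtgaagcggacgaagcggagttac
Slc25a10: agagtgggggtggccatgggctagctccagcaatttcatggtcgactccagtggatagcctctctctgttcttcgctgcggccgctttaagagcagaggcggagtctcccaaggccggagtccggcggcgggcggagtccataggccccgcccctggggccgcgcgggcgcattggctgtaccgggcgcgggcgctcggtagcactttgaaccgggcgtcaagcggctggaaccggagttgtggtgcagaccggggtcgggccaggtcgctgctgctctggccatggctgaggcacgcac
Timm8b held 2 ETS-type matches, 1 YY1-type match on the opposite strand and 1 ERR-type match. Mrpl54 held 1 YY1-type match, which begins at base 42 after the start, and the windows of Mrps7 and Slc25a10 held none of these letters. The YY1-type letters begin with ATG. Whether a match holds the start codon was not tested, here or in the counts below.

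NRF1, the ETS factor GABP and YY1 are known regulators of nuclear genes for mitochondrial proteins. ETS-type letters stood in 31 of the 100 promoters (31%), against 11.2% of 19005 protein-coding promoters of the same length. The 19005 were not limited to genes above the floor, as the 100 were. The YY1-type match stood in 19%, against 6.39%, and the NRF1-type match in 12%, against 6.09%. At least 1 of these 3 motifs was found in 51% of the 100 promoters and in 20.6% of all promoters, and matches to different motifs shared no base in any of the 100. The ERR-type match stood in 1% and the TATA box TATAAA in 9%, against 0.353% and 13.1% of all promoters. Among the families, ETS-type matches stood in 35.1% of Mrpl, 30% of Mrps, 37.5% of Tomm, 33.3% of Timm and 21.7% of Slc25a promoters. The NRF1-type match was found in 7 of 37 Mrpl and in 0 of 23 Slc25a promoters. The promoters of the genes separated upwards held the ETS-type match in 9 of 33, and the others in 22 of 67. A match is a description of the letters and was not tied to the signals by any test.

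**Figure D4:**
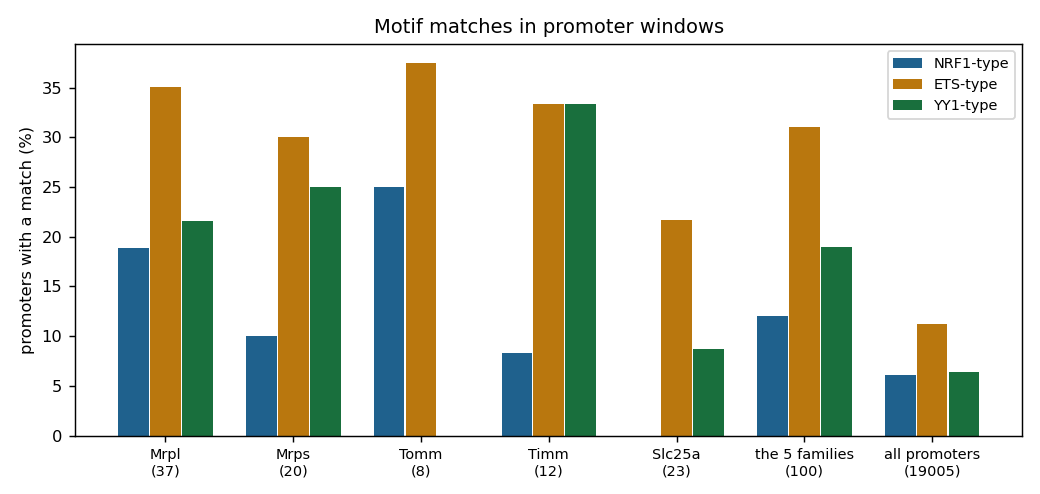
Share of promoter windows with a match to each of 3 motifs (bars, percent), by family, for the 5 families together and for all protein-coding promoters, with the number of promoters in brackets. The 5 families together reach 31% for the ETS-type motif, and all promoters 11.2%.

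Among the 45 large subunit genes named Mrpl, 29 were higher in obese tissue. Of the 45, 16 (35.6%) were separated upwards and 3 (6.67%) downwards, beside 16.4% and 24% of all genes. The median log2 difference of the 45 was 0.082, the range was -0.24 to 0.74, and the median was 0.026 without control replicate 1. After Mrpl14 and Mrpl54, Mrpl21 was next by t, with signals of 123.7 and 102.7 in obese and 56.2 and 95.9 in control tissue, and the log2 difference was 0.62 ± 0.29. That difference was 0.23 without control replicate 1, which was low for this gene. Mrpl4, a protein that lines the peptide tunnel, had 386.7 and 390 in obese and 340.5 and 363.8 in control tissue, a small separation of 0.14 ± 0.12. Mrpl17 had 543.4 and 629.5 in obese and 512.4 and 563 in control tissue, with overlapping groups and a difference of 0.12 ± 0.14.

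The lower large subunit genes differed by less. Mrpl44, which carries a ribonuclease III fold, had signals of 74.6 and 69.6 in obese and 97.1 and 74.7 in control tissue, and the log2 difference was -0.24 ± 0.21, or -0.052 without control replicate 1. Mrpl49 had 109.8 and 116.7 in obese and 119.8 and 130.6 in control tissue, with a difference of -0.14 ± 0.16. Its other probe set pointed the other way, at 0.26. Mrpl40, also separated downwards, had 115.2 and 113.6 in obese and 120.6 and 119.7 in control tissue. The difference was -0.071 ± 0.15, and the other probe set of Mrpl40 gave 0.40. Mrpl43 had 310 and 351.7 in obese and 385.7 and 342.9 in control tissue, with overlapping groups and a difference of -0.14 ± 0.14. Large subunit genes of bacterial type and those found in mitochondria alone had different counts. Of 26 genes of bacterial type, 20 were higher in obese tissue, with a median of 0.13. Of these, 12 (46.2%) were separated upwards and 0 downwards, beside 16.4% and 24% of all genes. Of 21 mitochondria-specific genes 11 were higher, 5 (23.8%) were separated upwards and 3 (14.3%) downwards, with a median of 0.043. In the small subunit, 9 of 15 genes of bacterial type were higher, 6 separated upwards and 2 downwards, with a median of 0.036. Of its 9 mitochondria-specific genes 6 were higher, 2 separated upwards and 0 downwards, with a median of 0.046. These counts place Mrps18a and Mrps30 in the large subunit, where their proteins sit in mammals, and the difference between the classes was not tested. Mrps18a, in the large subunit, and Mrps18b, in the small one, were counted as bacterial type. Both are relatives of bacterial S18, a small subunit protein, so the split is not exact for them.

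Of the 26 genes named Mrps, 17 were higher in obese tissue, with a median of 0.073 and a range of -0.25 to 0.52. Separated upwards were 9 (34.6%) and downwards 2 (7.69%), beside 16.4% and 24% of all genes. Leaving out control replicate 1 gave a median of 0.14, and leaving out control replicate 2 gave 0.034. After Mrps7 and Mrps28, Mrps21 was next, with signals of 213.3 and 231.5 in obese and 183.5 and 190 in control tissue, and the log2 difference was 0.25 ± 0.13. Mrps2 was the gene with the smallest t, with 191.7 and 164 in obese and 200.6 and 221.6 in control tissue and a difference of -0.25 ± 0.15. It was -0.14 without obese replicate 2. Mrps33 and Mrps26 had overlapping groups and differences of -0.17 ± 0.15 and -0.13 ± 0.16. Mrps17 had 429.7 and 395 in obese and 358.8 and 479 in control tissue, so both obese arrays lay between the control arrays, and the difference was -0.0090 ± 0.17. In all, 15 of the 26 genes named Mrps had overlapping groups.

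The Tomm genes were the family with the highest share of separated genes, and each of these differences was small. Upwards there were 5 of 9 (55.6%, beside 16.4% of all genes) and downwards 2 of 9 (22.2%, beside 24%). The median was 0.094. The 3 small subunits that stabilize the TOM channel were all separated upwards. Tomm5 had signals of 338.3 and 405.7 in obese and 293.5 and 333.5 in control tissue, and the log2 difference was 0.24 ± 0.15, or 0.11 without obese replicate 2. Tomm6 had 538.2 and 542.1 in obese and 505.5 and 491.5 in control tissue, and Tomm7 had 676.5 and 652.4 in obese and 620 and 631.6 in control tissue. Their differences were 0.12 ± 0.12 and 0.086 ± 0.12, so the separation came with close arrays and not with a wide difference.

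Of the receptors that recognize precursors, Tomm22 and Tomm70 were separated upwards by 0.12 ± 0.12 and 0.094 ± 0.13, and Tomm20 overlapped. Tomm20 had signals of 550.1 and 597 in obese and 628.1 and 543.6 in control tissue, and the log2 difference was -0.028 ± 0.14, and its other probe set gave 0.093. The channel gene Tomm40 had 84.9 and 90.3 in obese and 90.5 and 54.3 in control tissue, with a difference of 0.32 ± 0.28. That value rested on control replicate 2, without which it was -0.048. The 2 genes separated downwards were Tomm34 and Tomm40l. Tomm34, a cytosolic factor that keeps precursors open for import, had 165.8 and 157.6 in obese and 189.6 and 194 in control tissue, a difference of -0.25 ± 0.14. Tomm40l, a copy of the channel gene, had 43.2 and 43.7 in obese and 52.6 and 49.4 in control tissue, a difference of -0.23 ± 0.19.

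Of 14 Timm genes, 13 were kept and 10 of these were higher in obese tissue. Separated upwards were 3 (23.1%) and downwards 1 (7.69%), beside 16.4% and 24% of all genes. The median of the 13 was 0.030 (0.083 without control replicate 2, 0.019 without obese replicate 2). Timm44, which ties the import motor to the channel, was under the floor on every array, with signals of 10.7 and 17.4 in obese and 2.4 and 2.3 in control tissue, and no fold is given. The 6 small chaperones of the intermembrane space were higher in the probe sets used, with Timm8b and Timm9 separated, and without Timm8b the differences lay between 0.027 and 0.093. The other probe set of Timm8a1 gave -0.22, against 0.028 for the one used. Timm13, a partner of the Timm8 proteins, had 270.4 and 259.4 in obese and 250 and 270.4 in control tissue, with a difference of 0.027 ± 0.13 that was -0.030 without control replicate 1. The 4 genes of the presequence translocase were higher by 0.0066 to 0.21, with Timm17a at 0.21 ± 0.17 and Timm21 at 0.21 ± 0.19. Timm17a had 220.2 and 277.8 in obese and 230.5 and 199.3 in control tissue, so the groups overlapped, and the difference was 0.039 without obese replicate 2. Timm21 gave 0.036 without obese replicate 1.

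Timm29 and Timm22 are the inner membrane subunits measured of the translocase that inserts the carriers themselves. The small chaperones that belong to this translocase are among the 6 given above, which were all higher in the probe sets used. Timm29, which docks this complex to the outer membrane in human cells, had signals of 183.5 and 203.4 in obese and 234.4 and 235.3 in control tissue. The control arrays were nearly equal and both obese arrays lay below them, a log2 difference of -0.28 ± 0.13 (limma adjusted p = 0.646). Its channel, Timm22, overlapped, with 84.2 and 95.8 in obese and 83.8 and 104 in control tissue and a difference of -0.056 ± 0.20, its other probe set gave 0.097, and it was above 0 under each of the 3 other scalings. Timmdc1, a factor of complex I assembly that shares the name, had a difference of -0.020 ± 0.17.

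Of 28 carrier genes, 25 were kept, and Slc25a18, Slc25a21 and Slc25a34 lay under the floor on every array. Among the 25, 15 were higher in obese tissue. Separated upwards were 6 (24%) and downwards 3 (12%), beside 16.4% and 24% of all genes. The median of the 25 was 0.054 (0.033 without obese replicate 2, 0.016 without control replicate 2). They had the widest range of the 5 families, -0.76 to 0.50. The carriers of oxidative phosphorylation, bright on these arrays, were higher on obese replicate 2 alone. Slc25a3, the phosphate carrier, had signals of 1438.6 and 1803.1 in obese and 1453.9 and 1360.6 in control tissue. Slc25a5, an ADP/ATP carrier, had 1503.6 and 1932.5 in obese and 1383.7 and 1573.4 in control tissue, and Slc25a4, the form of heart and muscle, had 979.1 and 1169.1 in obese and 1026.2 and 962.8 in control tissue. In all 3 obese replicate 1 lay between the control arrays and obese replicate 2 above both. The differences of 0.20 ± 0.16, 0.21 ± 0.18 and 0.11 ± 0.15 became 0.033, 0.027 and -0.022 without obese replicate 2.

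**Figure D5:**
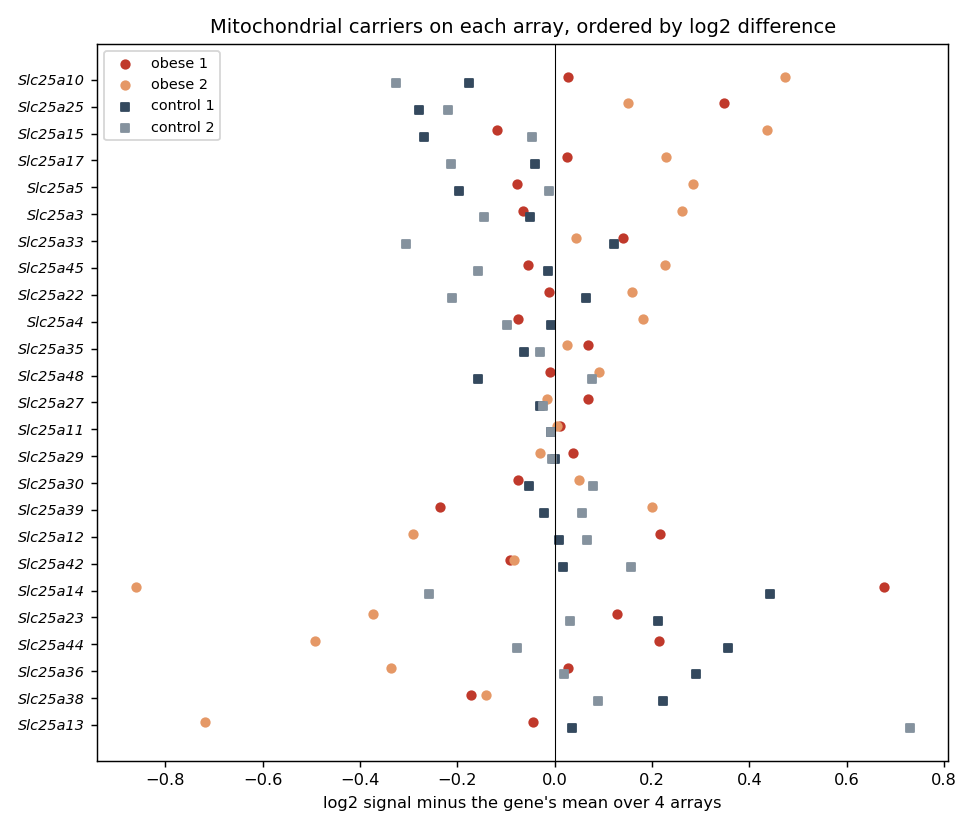
Log2 signal of each of the 25 kept carriers minus the gene's mean over the 4 arrays, with obese arrays as circles and control arrays as squares, ordered by log2 difference. Slc25a10 and Slc25a25 stand at the top with no overlap, Slc25a13 at the bottom, and Slc25a11 shows 4 nearly equal arrays.

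Carriers of carboxylates and amino acids had no common direction, with 7 of 11 higher. Each way 2 were separated (18.2%), beside 16.4% of all genes upwards and 24% downwards. Below Slc25a10 in this class, the oxoglutarate carrier Slc25a11 was nearly constant, with signals of 308.8 and 307.4 in obese and 304.7 and 304.9 in control tissue, a ratio of 1.01 between the highest and the lowest array. Its groups did not overlap although the log2 difference was 0.016 ± 0.12. Slc25a13 and Slc25a12 are the aspartate/glutamate carriers of the malate-aspartate shuttle. Slc25a13 was dim, with 33.5 and 21 in obese and 35.4 and 57.3 in control tissue, a difference of -0.76 ± 0.34 (limma adjusted p = 0.623). Leaving out obese replicate 2 gave -0.43, and leaving out control replicate 2 gave -0.42. Slc25a12 had 79.6 and 56 in obese and 69 and 71.8 in control tissue, with overlapping groups and a difference of -0.076 ± 0.23. Slc25a38, a glycine carrier needed for haem synthesis, had 95.3 and 97.4 in obese and 125.3 and 114.2 in control tissue, with close arrays in each group and a difference of -0.31 ± 0.16.

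Among carriers of nucleotides and coenzymes, Slc25a17, the peroxisomal member of the family, had signals of 288.4 and 332 in obese and 275.6 and 244.4 in control tissue, and the log2 difference was 0.25 ± 0.14. It was 0.15 without obese replicate 2. Slc25a36, a pyrimidine nucleotide carrier, had 402.6 and 312.9 in obese and 482.7 and 399.9 in control tissue. The higher obese array just passed the lower control array, and the difference was -0.31 ± 0.18, and -0.13 without obese replicate 2. Slc25a14, an uncoupling protein relative and not of this class, had 60.4 and 9.5 in obese and 51.3 and 31.6 in control tissue. The lower obese array lay under the floor, and the difference of -0.18 ± 0.53, taken with that array at the floor, was smaller than its error. Slc25a14, Mrpl40, Tomm22, Timm8a1, Timm9 and Gars1 were named after their values were seen.

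Of the 118 genes, 11 had another probe set above the floor, 13 probe sets in all. Of these 13, 4 had a difference of the same sign as the probe set used and 9 of the opposite sign, so the sign of a small difference depended on the probe set. None of the 7 genes with an unadjusted p under 0.05 had a second probe set above the floor.

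Genes of the same pathways under other names were counted from 7 lists. Over the lists, 78 genes were measured, of which 22 (28.2%) were separated upwards and 8 (10.3%) downwards, beside 16.4% and 24% of all genes. At an unadjusted p under 0.05 there were 4 higher and 1 lower, beside 3.33% and 5.26% of all genes, and 0 passed limma over all probe sets (adjusted p of at least 0.371 for each). The list closest to the families, import and assembly factors, had 17 of 21 genes higher, 10 separated upwards and 1 downwards, with a median of 0.16. Samm50, which inserts barrel proteins into the outer membrane, had signals of 456.2 and 424.2 in obese and 314.4 and 340.8 in control tissue, and the log2 difference was 0.43 ± 0.13. Oxa1l, the inner membrane insertase, had 273.9 and 238.3 in obese and 356.7 and 293.9 in control tissue, a difference of -0.34 ± 0.16.

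Mitochondrial ribosome proteins under other names had 2 of 5 genes higher. Of the 5, 0 were separated upwards and 2 (40%) downwards, beside 16.4% and 24% of all genes. Ptcd3, a small subunit protein, had signals of 152.5 and 191.5 in obese and 337.6 and 351.3 in control tissue. Both obese arrays lay far below the control arrays, and the log2 difference of -1.01 ± 0.16 (limma adjusted p = 0.371) was larger than that of any of the 118 genes. Chchd1 was the highest by t in this list, at 0.21 ± 0.16. Translation factors had 6 of 12 genes higher, 3 (25%) separated upwards and 1 (8.33%) downwards. Slirp was at 0.30 ± 0.19 and Mtfmt at -0.14 ± 0.20. Aminoacyl-tRNA synthetases of mitochondria had 5 of 7 higher, 3 (42.9%) separated upwards and 0 downwards. Kars1 was at 0.25 ± 0.14 and Hars2 at -0.025 ± 0.25. Kars1 and Gars1, both separated upwards, also encode the cytosolic enzymes, so their signals are not of the mitochondrial forms alone.

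Chaperones and proteases of the matrix and inner membrane had 7 of 15 genes higher. Of the 15, 4 (26.7%) were separated upwards and 2 (13.3%) downwards, beside 16.4% and 24% of all genes. The protease subunit Clpp had signals of 101.5 and 108.2 in obese and 83.7 and 69.6 in control tissue, and the log2 difference was 0.46 ± 0.18, and Spg7, paraplegin, had a difference of -0.32 ± 0.15. Carriers and carrier relatives under other names had 3 of 7 higher, 1 (14.3%) separated upwards and 2 (28.6%) downwards. Mpc1, a subunit of the pyruvate carrier and not of the Slc25a family, had 613.1 and 914.1 in obese and 467.1 and 463.1 in control tissue. The difference of 0.69 ± 0.20 was 0.40 without obese replicate 2. Ucp2, an uncoupling protein also present in macrophages, had 453 and 447.2 in obese and 508.9 and 631.1 in control tissue. The difference was -0.33 ± 0.15, beside the lower macrophage sums given above, and a link between them was not tested. The regulators of mitochondrial biogenesis had 5 of 11 higher, 1 (9.09%) separated upwards and 0 downwards. Myc had 173.5 and 135.8 in obese and 93.2 and 86.5 in control tissue, a difference of 0.77 ± 0.19 (limma adjusted p = 0.467), and Tfam, the packaging factor of mitochondrial DNA, had a difference of -0.10 ± 0.14.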

How the data were processed

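RNA was measured on 4 single-colour arrays. The authors' deposited values are intensities on a linear scale, 1 per probe set and array, already scaled, since the mean after trimming 2% at each end lay between 150.026 and 150.03. The sources used here do not give scanner, software or normalization. The values were used as scaled, 57 control probe sets of 15923 were left out, values were raised to the 20th percentile (20.8) and log2 was taken. Probe sets with at least 2 arrays above this floor (12929) were compared, obese minus control, two-sided, with limma 3.58.1 in R 4.3.3 (lmFit, eBayes with trend, Benjamini-Hochberg adjustment over all of them, threshold 0.05). An exact permutation test of 2 against 2 arrays can give no p under 0.333 and was not run. The number of arrays limits the precision. A gene is its probe set with the highest mean signal. All 122 symbols matched RefSeq (GRCr8). The code was tested on simulated data.

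The genes, lists and motifs were chosen with earlier results of these data known. The respiratory chain and cytosolic ribosome groups were defined after the values were seen. Named genes are, in each family, the 3 largest and the 3 smallest t, the 2 highest signals and a chosen set of 12 where kept, with genes under an unadjusted p of 0.05, and in each list the largest and the smallest t. Alternatives were 3 scalings, floors, filters, variance models, a replicate block, each array left out, and probe sets averaged per gene. Probe sets that list several symbols, 3 of them beginning with these prefixes, were not used here.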

Additional observations from a re-analysis of the deposited data

How the results depend on the processing

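None of the 118 genes passed the threshold under any of the 17 alternatives. Over all probe sets 0 passed, with 3 under a pseudocount, 6 without the filter and 1 each without the trend, with the robust variance model and with probe sets averaged per gene. The genes separated upwards, 39 here, numbered 52 to 63 with an array left out, when fewer arrays can overlap (28.3% to 33.1% of all genes), and those separated downwards, 11 here, numbered 25 to 27 (35.7% to 45.5% of all genes). With median centring, quantile normalization and cyclic loess in turn, the upward count was 48, 46 and 44 (23%, 19.4% and 20.3% of all genes) and the downward count 6, 7 and 7 (16.5%, 20.7% and 19.9%). Over the 7 lists, the 22 separated upwards became 30 to 40 with an array left out.

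The median of the 118 was 0.16 with median centring, 0.098 with quantile normalization, 0.10 with cyclic loess, 0.055 with a pseudocount and 0.041 to 0.078 with an array left out. Without the filter the 4 dim genes enter at the floor, and the median over 122 genes was 0.055, while that of the 118 stayed at 0.079. With median centring the family medians were 0.16 (Mrpl), 0.14 (Mrps), 0.17 (Tomm), 0.11 (Timm) and 0.13 (Slc25a). Quantile normalization gave 0.12 for Mrps and 0.083 for Slc25a, and cyclic loess 0.12 for Mrps, 0.093 for Timm and 0.088 for Slc25a. For Slc25a the median was also 0.0087 with the floor at the 40th percentile (19 genes left), 0.036 with a pseudocount, 0.011 without the filter (over all 28 genes) and 0.016 with probe sets averaged. With an array left out the medians ran from 0.026 to 0.094 for Mrpl, 0.034 to 0.14 for Mrps, 0.078 to 0.12 for Tomm, 0.019 to 0.083 for Timm and 0.016 to 0.072 for Slc25a. The causes were not tested.

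Small differences turned sign. With median centring, quantile normalization and cyclic loess in turn, Slc25a12 gave 0.0030, 0.0052 and 0.0047, Timm22 0.023, 0.0060 and 0.017, Timmdc1 0.059, 0.016 and 0.020, and Hars2 0.055, 0.064 and 0.063. Median centring also gave 0.070 for Mrps17 and 0.051 for Tomm20. Averaged probe sets gave 0.056 for Mrpl49, 0.021 for Timm22 and 0.033 for Tomm20. With an array left out, Mrps17 ran from -0.22 to 0.20, Mrps26 from -0.31 to 0.047, Slc25a12 from -0.33 to 0.18, Slc25a4 from -0.022 to 0.23, Timm13 from -0.030 to 0.083, Timm22 from -0.21 to 0.10, Timmdc1 from -0.19 to 0.15, Tomm20 from -0.13 to 0.076, Tomm40 from -0.048 to 0.69 and Hars2 from -0.28 to 0.23. The lone array of a group is then assumed to vary like the other group. With the replicate block the median of the 118 was 0.079, 39 genes were separated upwards and 0 probe sets passed. The labels tie no animal or day to a replicate number, and the deviations of same-numbered arrays correlated with r = 0.048 over probe sets.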
